A study of Bos taurus with 79 samples.

Results

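Amino acid, peptide and monocarboxylate carriers are membrane proteins of several solute carrier families, and the genes described here are those the bovine array names in the families SLC1A, SLC3A, SLC6A, SLC7A, SLC15A, SLC16A, SLC38A and SLC43A. The rule that chose them was written with earlier results of these data known. It took every probe set whose only gene symbol in the platform annotation begins with a family name, SLC36A included, followed by a number. This gave 49 probe sets for 33 genes, of 24016 probe sets and 9155 named genes in all. By family there were 10 genes of SLC6A, 5 of SLC7A, 5 of SLC38A, 4 of SLC1A, 3 of SLC16A and 2 each of SLC3A, SLC15A and SLC43A, and SLC36A had no gene. The name SLC7A6OS entered by the same rule, although that gene is the opposite-strand neighbour of a carrier and not known as a carrier itself.

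Endometrium, the lining of the uterus, was taken from cross-bred beef heifers whose estrous cycles had been synchronised, and its RNA was measured on 79 Affymetrix arrays, 1 per sample. Heifers were either cyclic or inseminated and later found pregnant, and they were slaughtered on day 5, 7, 13 or 16. In each status some kept a normal progesterone concentration and the others carried a progesterone releasing intravaginal device, placed on day 3 and left until slaughter. The 4 resulting groups are called CN and CH for cyclic heifers with normal and high progesterone and PN and PH for pregnant heifers likewise. Every group of a day held 5 arrays titled as biological replicates, apart from CH on day 7 with 4 (replicates 2 to 5). All animals shared the synchronisation, the device adds progesterone without removing the animal's own, and each RNA came from a 300 mg strip of tissue with all its cell types, so fewer cells of a type and less RNA per cell cannot be told apart.

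Before implantation the bovine embryo floats in the uterine lumen and lives on fluid that the endometrium secretes or lets through. Carriers in the epithelium move amino acids, small peptides, creatine, lactate and pyruvate between blood, cells and that fluid. Progesterone, which climbs after ovulation, sets the pace at which this fluid changes. Arginine, leucine and glutamine, handled by SLC7A and SLC1A carriers, are also signals that the growth kinase mTORC1 reads.

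Values are deposited log2 levels, so a difference of 1 is a 2-fold change. A difference is given ± its standard error from a limma fit of all 16 groups, and it passed the test at an adjusted p under 0.05, corrected over all 24016 probe sets. Array medians lay between 4.71 and 5.12. Values on 5 arrays lay far from their group (CH day 5 replicate 3, CN day 7 replicate 5, CH day 7 replicate 3, PH day 13 replicates 1 and 4), on 2 of these, CH day 7 replicate 3 and PH day 13 replicate 1, the distribution was narrow, and 3 arrays had high smooth muscle markers (PN day 5 replicate 4, PH day 7 replicate 5 and PH day 13 replicate 4). All 10 epithelial markers sought were measured, and 9 of them lay above a log2 mean of 3, KRT8 being the exception at 2.23; all 9 stromal markers measured lay above 3. Standard errors rest on the number of arrays and on an estimate of the spread between samples that, for each probe set, all 16 groups share. The p-values weigh a difference against that shared spread. Where the compared groups vary more than the others, the standard error is too small for them.

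A log2 mean under 3 is treated here as near the lower end of the scale, where differences are compressed, and 32.2% of all probe sets lay there. Of the 33 genes, 11 did: SLC3A1, SLC6A2, SLC6A4, SLC6A6, SLC6A9, SLC6A11, SLC6A15, SLC6A17, SLC7A9, SLC38A3 and SLC38A5. SLC3A1 and SLC7A9, the heavy and light chain of the renal cystine carrier, stayed under 3 on all 79 arrays. The taurine carrier SLC6A6 and the glycine carrier SLC6A9 did so too. The other 22 genes had means of 3 or more, from SLC1A3 at 3.31 to SLC38A2 at 11.28, and levels of different genes are not compared because probe sets differ in brightness. Of the 33 genes, 18 passed in at least 1 of 12 comparisons of days, progesterone or pregnancy. The like share of all probe sets was not computed, so the 18 are not read as particular to carriers. From day 7 to day 13 alone, 36.9% of all probe sets passed.

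From day 5 to day 7, 6 carriers rose and 2 fell. The glutamate and aspartate carrier SLC1A1, the monocarboxylate carrier family member SLC16A13, the lysosomal glutamine carrier SLC38A7, the creatine carrier SLC6A8, the cationic and neutral amino acid exchanger SLC7A7 and its heavy chain SLC3A2 rose, and the glutamine carrier SLC1A5 and the leucine carrier SLC7A5 fell. These 8 of 33 genes make 24.2%, beside 20.7% of all probe sets (8.84% higher and 11.8% lower). Here and below the carrier share counts the brightest probe set of each gene, and the other share counts every probe set, unnamed ones included. A share over named genes was not computed. The median difference was 0.02 over the 33 genes and 0.01 over all probe sets.

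SLC1A1 ranged from 5.45 to 9.32 with a median of 8.35 over the 20 arrays of day 5, and from 7.10 to 10.50 with a median of 9.52 over the 19 of day 7. The days overlapped, and the lowest value of all belonged to a CN array of day 5. It rose by 1.28 ± 0.24, or 2.42-fold (limma adjusted p = 4.5e-05). The difference was 1.65 ± 0.48 for CN and 1.39 ± 0.51 for CH, and 0.48 ± 0.48 for PN and 1.59 ± 0.48 for PH, so PN had the smallest.

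SLC38A7 ran from 5.70 to 7.38 (median 6.49) on day 5 and from 5.51 to 8.16 (median 7.55) on day 7. It rose by 0.99 ± 0.14 (adjusted p = 1.21e-07), with a difference above 0 in each group, from 0.57 ± 0.27 in CN to 1.24 ± 0.29 in CH. The days overlapped, although the CH arrays of day 7 (7.60 to 8.06) all lay above those of day 5 (6.47 to 6.59). SLC16A13, a member of the monocarboxylate family whose cargo is little known, ran from 6.37 to 8.73 (median 7.63) and then from 6.22 to 9.30 (median 8.57). It rose by 1.01 ± 0.18 (adjusted p = 1.22e-05), and its other probe sets gave 1.16 ± 0.23 and 0.96 ± 0.17.

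SLC7A7 and SLC3A2, which together form an exchanger that exports cationic amino acids, rose by 0.55 ± 0.15 (adjusted p = 0.0049) and 0.35 ± 0.09 (adjusted p = 0.00224). SLC3A2 is also the heavy chain of SLC7A5, the main importer of leucine, and SLC7A5 fell by 0.80 ± 0.24 (adjusted p = 0.00997). SLC7A5 ran from 4.54 to 6.50 (median 5.35) on day 5 and from 2.78 to 5.70 (median 4.76) on day 7. The heavy chain and this light chain thus moved in opposite directions. SLC6A8 rose by 0.49 ± 0.12 (adjusted p = 0.000985), and its second probe set gave 0.36 ± 0.12.

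SLC1A5, a sodium-dependent glutamine importer, ran from 4.09 to 6.50 (median 5.16) on day 5 and from 3.40 to 6.50 (median 4.22) on day 7. It fell by 0.97 ± 0.17 (adjusted p = 1.37e-05), and the highest value of day 7 came from CN replicate 5, an array far from its group. The difference was -0.33 ± 0.34 for CN and -1.48 ± 0.36 for CH, and -1.18 ± 0.34 for PN and -0.88 ± 0.34 for PH. The arginine carrier SLC7A1 differed by -0.41 ± 0.18 without passing (adjusted p = 0.107), and without CH day 7 replicate 2 it passed at -0.50 (adjusted p = 0.0397). The glutamine carrier SLC38A2 differed by -0.14 ± 0.09 (adjusted p = 0.273) and passed at -0.20 (adjusted p = 0.0491) without CN day 7 replicate 5. SLC6A2, near the lower end of the scale, differed by 0.53 ± 0.21 (adjusted p = 0.0586) and passed at 0.56 to 0.68 (adjusted p = 0.00287 to 0.0462) without PH day 5 replicate 4, CN day 7 replicate 2, 4 or 5, CH day 7 replicate 3, 4 or 5, PN day 7 replicate 1 or 2 or PH day 7 replicate 1 or 5. SLC1A4, SLC15A1, SLC15A4, SLC16A1, SLC16A3, SLC43A1 and SLC43A2 also missed the threshold, with differences from -0.49 ± 0.27 for SLC16A1 to 0.27 ± 0.15 for SLC1A4. SLC6A20 differed by -0.59 ± 0.36 (adjusted p = 0.288), with 0.10 ± 0.71 in CN and 0.97 ± 0.71 in PN beside -1.56 ± 0.75 in CH and -1.86 ± 0.71 in PH.

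All 8 macrophage markers measured were lower on day 7 than on day 5, with a median difference of -0.77, and their mean level per array ran from 6.35 to 10.30 on day 5 and from 5.79 to 8.17 on day 7. Of the epithelial markers 4 of 10 were higher and 1 lower, and of the stromal markers 5 of 9 were lower. Of all probe sets 8.84% passed as higher and 11.8% as lower. Smooth muscle markers had a median difference of -0.71 with 2 of 8 lower, and their mean per array ran from 7.48 to 11.44 on day 5 and from 6.99 to 11.00 on day 7. The part of these cell types in the carrier differences was not tested. The epithelial mean per array ran from 7.95 to 8.41 on day 5 and from 7.76 to 8.47 on day 7.

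From day 7 to day 13, 5 carriers rose and 9 fell. The imino acid carrier SLC6A20, the creatine carrier SLC6A8 and the lactate exporter SLC16A3 fell furthest, while SLC1A1 and the lactate and pyruvate carrier SLC16A1 rose furthest. These 14 genes make 42.4% of 33, beside 36.9% of all probe sets (18.8% higher and 18.1% lower). The median difference was -0.03 over the 33 genes and -0.12 over the 22 with a mean of 3 or more, beside -0.01 over all probe sets.

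**Figure D1:**
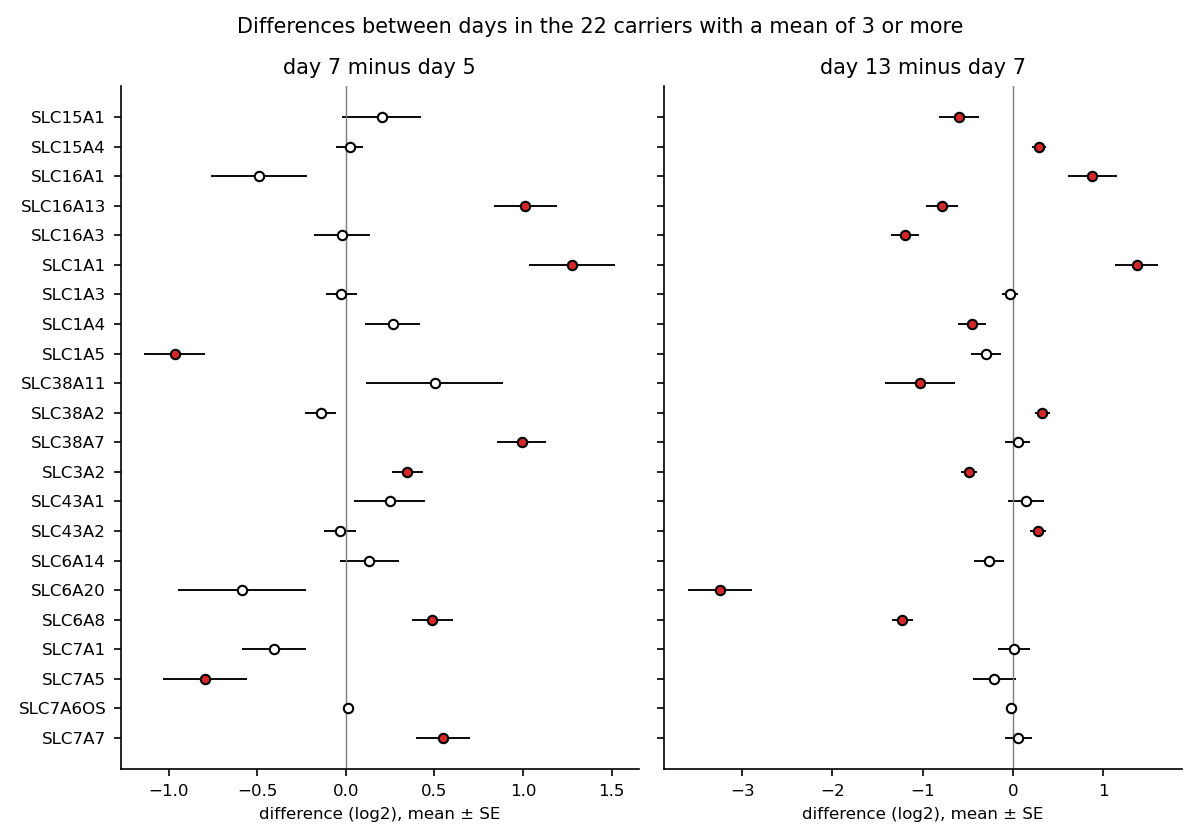
Differences in log2 level from day 5 to day 7 (left) and from day 7 to day 13 (right) for the 22 genes with a mean of 3 or more, as the mean over the 4 groups ± standard error; red points passed the test and open points did not. SLC1A1 lies to the right in both panels, and SLC6A20 lies furthest to the left on day 13 at -3.25. Both panels share day 7, so their values are not independent.

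SLC6A20, which takes up proline and related imino acids, ran from 3.00 to 10.06 with a median of 7.31 over the 19 arrays of day 7. Over the 20 arrays of day 13 it ran from 2.99 to 4.96 with a median of 3.76. The day 7 range was wide and its lowest value, in PH replicate 5, lay among those of day 13. It fell by 3.25 ± 0.36, or 9.50-fold (adjusted p = 1.08e-11). The difference was -4.07 ± 0.71 in CN and -4.69 ± 0.71 in PN, and -2.40 ± 0.75 in CH and -1.83 ± 0.71 in PH, whose day 7 levels were lower. The lowest levels of day 13 lay at the lower end of the scale.

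SLC6A8, which imports creatine for the cell's phosphate energy store, ran from 6.56 to 8.10 (median 7.32) on day 7 and from 5.63 to 6.42 (median 6.10) on day 13. The days did not overlap. It fell by 1.23 ± 0.12 (adjusted p = 4.21e-14), by similar amounts in each group from -1.08 ± 0.23 in CN to -1.37 ± 0.23 in PN, and its second probe set fell by 0.84 ± 0.12. Every array of day 13 lay below the day 5 median of 6.76.

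SLC16A3, a carrier typical of cells that export lactate, ran from 5.00 to 7.65 (median 6.64) on day 7 and from 3.96 to 7.02 (median 5.38) on day 13. It fell by 1.20 ± 0.16 (adjusted p = 2.29e-09). The difference was -1.26 ± 0.31 in CN, -1.99 ± 0.31 in PN and -1.47 ± 0.31 in PH, but -0.06 ± 0.33 in CH, whose day 13 arrays ran from 5.37 to 7.02. Its other probe sets lay under 3 and gave -0.16 ± 0.07 and -0.09 ± 0.05, so the mean over all its probe sets was -0.48. SLC16A1, which carries lactate and pyruvate either way, ran from 3.01 to 5.13 (median 4.12) and then from 3.25 to 6.70 (median 4.79), and rose by 0.88 ± 0.27 (adjusted p = 0.00613). SLC16A13 fell by 0.78 ± 0.18 (adjusted p = 0.000216), and its other probe sets fell by 0.80 ± 0.23 and 0.95 ± 0.17.

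SLC1A1 rose again, by 1.37 ± 0.24 (adjusted p = 3.26e-06), to between 9.44 and 12.04 (median 10.71) on day 13. The lowest value of day 13 lay near the day 7 median of 9.52. Within groups the difference was 1.59 ± 0.48 for CN and 0.99 ± 0.51 for CH, and 2.10 ± 0.48 for PN and 0.80 ± 0.48 for PH. The glutamine carrier SLC38A2 rose by 0.33 ± 0.09 (adjusted p = 0.00129), a call that was lost when the mean of its probe sets was used (0.28, adjusted p = 0.0603). The lysosomal histidine and peptide carrier SLC15A4 rose by 0.29 ± 0.08 (adjusted p = 0.00178), and the neutral amino acid carrier SLC43A2, at 3.20 on day 7 and 3.48 on day 13, rose by 0.28 ± 0.09 (adjusted p = 0.00863).

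SLC3A2 fell by 0.49 ± 0.09 (adjusted p = 4.99e-06), from between 8.15 and 9.49 to between 8.02 and 9.04. The serine and alanine exchanger SLC1A4 fell by 0.45 ± 0.15 (adjusted p = 0.0151) and the peptide carrier SLC15A1 by 0.60 ± 0.22 (adjusted p = 0.0269). SLC38A11, a little characterised member of the sodium-coupled neutral amino acid family, fell by 1.03 ± 0.38 (adjusted p = 0.0275). That call was lost at adjusted p = 0.0518 to 0.0595, with differences from -0.94 to -0.89, without CN day 7 replicate 4, CH day 7 replicate 4, CN day 13 replicate 4, CH day 13 replicate 2 or PH day 13 replicate 2. The noradrenaline carrier SLC6A2 fell by 0.69 ± 0.21 (adjusted p = 0.00496), but its mean was 2.34 and it exceeded 3 on 5 arrays, with 4.73 in CN replicate 1, 5.26 in CH replicate 2, 4.28 in PN replicate 4 and 4.36 in PH replicate 4 of day 7 and 5.25 in PH replicate 4 of day 5.

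The other 8 genes with a mean of 3 or more that missed the threshold, besides SLC7A6OS, differed from day 7 to day 13 by 0.06 ± 0.14 for SLC38A7, 0.06 ± 0.15 for SLC7A7, 0.01 ± 0.18 for SLC7A1 and 0.14 ± 0.20 for SLC43A1. SLC1A5 and SLC7A5, which had fallen before, differed by -0.30 ± 0.17 and -0.20 ± 0.24, the broad importer SLC6A14 by -0.27 ± 0.17 and the glutamate carrier SLC1A3 by -0.03 ± 0.09. In SLC38A7 the groups differed in sign, with 0.67 in CN and 0.54 in PN against -0.79 in CH and -0.19 in PH, and that difference was not tested.

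**Figure D2:**
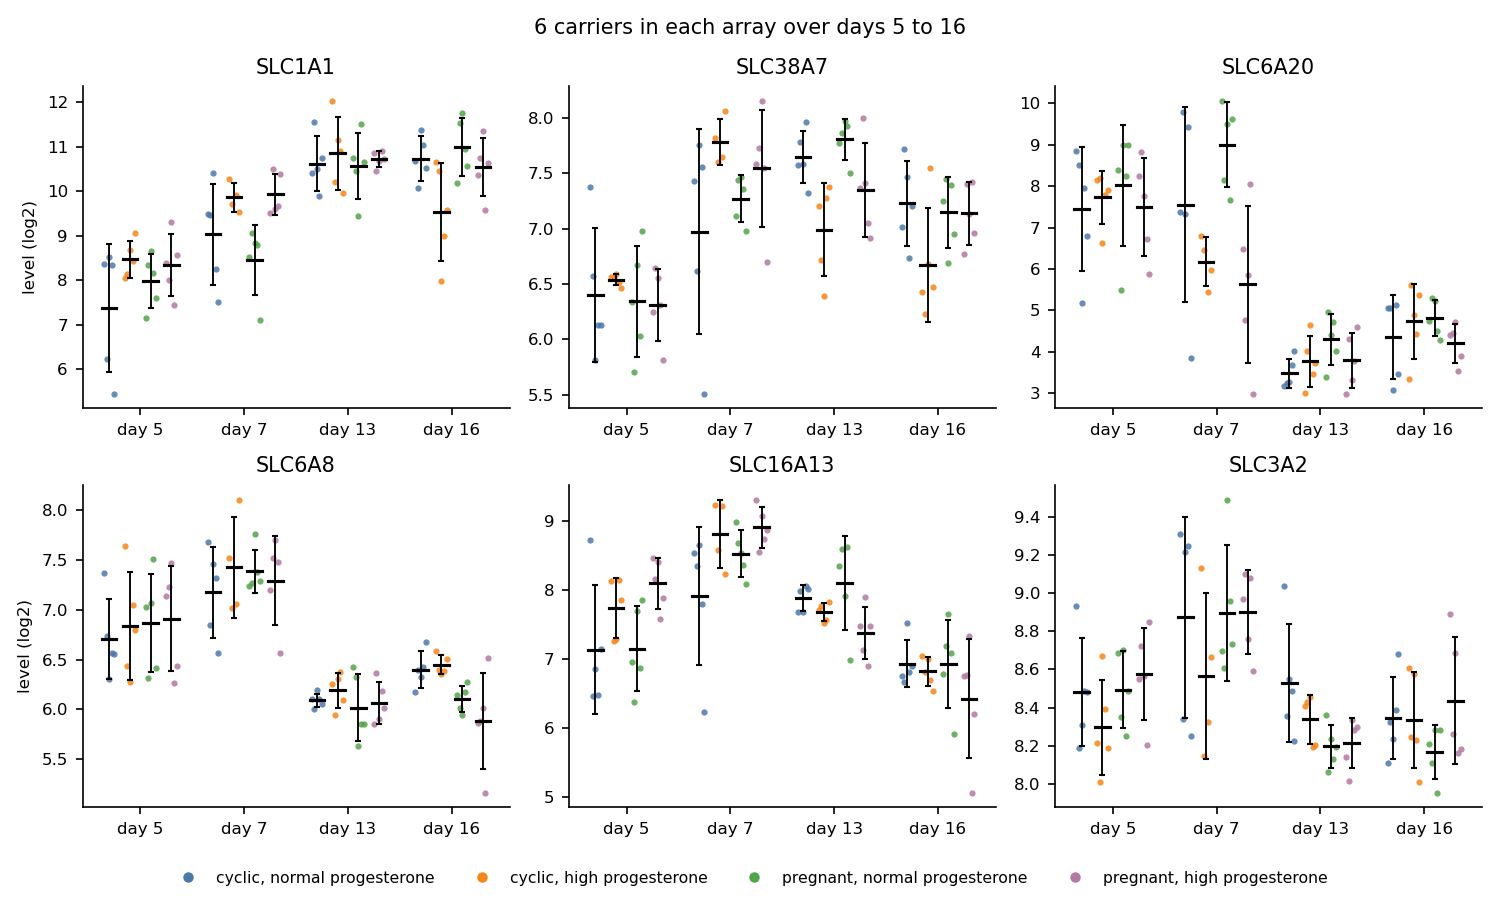
Log2 level of 6 carriers in each array by day; colours give the 4 groups, the bar is the group mean and the whiskers its SD. SLC1A1 climbs from day 5 to day 13, SLC6A20 drops to between 2.99 and 4.96 on day 13, SLC6A8 on day 13 lies wholly below day 7, and the y axes differ between genes.

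Genes around the carriers changed over the same days. From day 7 to day 13, 36.9% of all probe sets passed (18.8% higher and 18.1% lower), and the counts of gene lists are to be read against that. Of 25 genes of the amino acid response, the program under ATF4 that cells start when amino acids run short, 7 rose and 11 fell from day 7 to day 13. Within it the serine synthesis enzymes PSPH and PSAT1 moved apart, by 4.94 ± 0.26 and -2.34 ± 0.18, and the folate enzyme MTHFD2 fell by 2.34 ± 0.24. Of 17 enzymes of glutamine, glutamate and arginine 2 rose and 7 fell, led by ODC1, the first enzyme of polyamine synthesis, at -3.22 ± 0.14, with GPT2 at 1.42 ± 0.12 and SMS at -0.86 ± 0.15. Of 20 genes of amino acid sensing and mTORC1, 4 rose and 9 fell, with EIF4EBP1 at -1.09 ± 0.13, SESN1 at 0.80 ± 0.10 and MLST8 at -0.73 ± 0.18. Median differences of these lists were -0.19, -0.28 and -0.11, beside -0.01 over all probe sets.

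Of 17 genes of lactate and pyruvate metabolism, 3 rose and 10 fell from day 7 to day 13, with a median of -0.40. LDHA, the lactate dehydrogenase subunit that favours lactate, fell by 2.54 ± 0.11, BSG, the chaperone that brings SLC16A1 and SLC16A3 to the membrane, fell by 1.44 ± 0.08, and PDK4, which restrains pyruvate oxidation, rose by 1.47 ± 0.21. Among 9 surface and secreted peptidases, which release the peptides and amino acids that carriers take up, 3 rose and 3 fell, with ANPEP at -5.91 ± 0.26, MEP1B at 5.43 ± 0.22 and DPP4 at 2.59 ± 0.24. Of 8 amino acid carriers outside the families described here 3 rose and 3 fell, with SLC25A29 at -1.92 ± 0.18.

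From day 5 to day 7, when 20.7% of all probe sets passed (8.84% higher and 11.8% lower), 2 of 25 genes of the amino acid response rose and 5 fell, 3 of 17 enzymes of glutamine, glutamate and arginine rose and 3 fell, and 6 of 20 genes of amino acid sensing rose and 2 fell. The lactate and pyruvate list had 1 gene higher and 8 lower of 17, with PKM at -0.89 ± 0.12, PDK3 at -0.68 ± 0.13 and PDHB at -0.50 ± 0.06. Peptidases rose in 3 of 9 and fell in 1, and the carriers of other families rose in 1 of 8 and fell in 1.

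Beside the changes from day 7 to day 13, 8 of 10 endothelial markers were higher, with a median of 0.50, and their mean per array went from between 5.07 and 5.73 to between 5.42 and 6.27. Of the epithelial markers 3 rose and 3 fell, and their mean per array ran from 7.76 to 8.47 and then from 7.75 to 8.90. Stromal markers rose in 3 of 9 and fell in 3, and no macrophage marker passed. Of all probe sets 18.8% passed as higher and 18.1% as lower. The part of these cell types in the carrier differences was not tested.

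From day 13 to day 16 pregnant and cyclic heifers were compared separately. In pregnant heifers the peptide carrier SLC15A1, the lactate exporter SLC16A3 and the neutral amino acid carrier SLC43A2 rose and SLC16A13 fell. These 4 of 33 genes make 12.1%, beside 6.72% of all probe sets (4.26% higher and 2.47% lower). The median difference was -0.01 over the 33 genes and -0.02 over all probe sets.

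SLC15A1, which takes up short peptides together with protons, stood on day 13 at 3.58, 3.92, 3.57, 4.57 and 3.73 in PN and at 4.11, 3.39, 3.25, 3.29 and 3.72 in PH. On day 16 it stood at 3.48, 5.67, 3.77, 4.89 and 3.62 in PN and at 6.63, 4.94, 4.91, 7.85 and 3.41 in PH. The values of 4 PH arrays on day 16 lay above every pregnant array of day 13, and the fifth did not. Over both pregnant groups it rose by 1.20 ± 0.31 (adjusted p = 0.00701), by 2.00 ± 0.44 in PH and 0.41 ± 0.44 in PN.

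SLC16A3 stood on day 13 at 5.01, 5.51, 4.89, 5.40 and 4.43 in PN and at 4.76, 5.50, 5.35, 3.96 and 5.63 in PH. On day 16 it stood at 6.87, 6.23, 5.50, 6.27 and 4.83 in PN and at 5.85, 7.16, 5.85, 6.80 and 6.69 in PH, where the days did not overlap. It rose by 1.16 ± 0.22 (adjusted p = 0.000126), and by 0.41 when the mean over its probe sets was taken. SLC43A2 ran from 3.23 to 4.24 on day 13 and from 3.26 to 5.03 on day 16, and rose by 0.46 ± 0.12 (adjusted p = 0.0106). Its call was lost without PN day 16 replicate 4 (0.35, adjusted p = 0.0574), in a fit of days 13 and 16 alone (adjusted p = 0.0675) and without the distant arrays (0.38, adjusted p = 0.0756).

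SLC16A13 ran from 6.90 to 8.62 (median 7.68) on day 13 and from 5.06 to 7.64 (median 6.78) on day 16 in pregnant heifers. It fell by 1.06 ± 0.25 (adjusted p = 0.00258), and its other probe sets gave -1.37 ± 0.32 (adjusted p = 0.00228) and -0.57 ± 0.24 (adjusted p = 0.156). SLC16A1 differed by 1.12 ± 0.37 without passing (adjusted p = 0.056). It passed without each of 5 arrays in turn, at 1.23 to 1.26 (adjusted p = 0.0299 to 0.0366), those arrays being PH day 13 replicate 1, PN day 16 replicates 2 and 5 and PH day 16 replicates 1 and 5. SLC7A9, under 3, differed by 0.14 ± 0.06 (adjusted p = 0.159) and passed at 0.18 (adjusted p = 0.0298) without PH day 16 replicate 5. SLC1A1, SLC1A4, SLC3A2 and SLC38A2 differed by 0.12 ± 0.34, 0.06 ± 0.21, 0.10 ± 0.12 and 0.06 ± 0.12.

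In cyclic heifers 0 of 33 genes passed by limma between day 13 and day 16, with 4 at an unadjusted p under 0.05, beside 0.77% of all probe sets. SLC16A13 stood at 7.67, 7.99, 7.68, 8.06 and 8.01 in CN and 7.71, 7.76, 7.52, 7.56 and 7.82 in CH on day 13, and at 6.75, 6.67, 7.52, 6.81 and 6.89 in CN and 7.04, 6.81, 7.00, 6.69 and 6.54 in CH on day 16. The days overlapped neither in CN nor in CH. Its difference of -0.90 ± 0.25 missed the threshold (adjusted p = 0.0633) and passed without CN day 16 replicate 3 or CH day 16 replicate 1, at -0.98 and -0.93 (adjusted p = 0.0457 and 0.048). SLC1A4 differed by 0.74 ± 0.21 (adjusted p = 0.0811) and passed without CH day 16 replicate 1 or replicate 4, at 0.84 to 0.87 (adjusted p = 0.022 to 0.0381). SLC7A7 and SLC15A4 differed by -0.67 and 0.34 ± 0.11. In pregnant heifers SLC7A7 missed the threshold too, and there it passed without the distant arrays, at -0.71 (adjusted p = 0.0305).

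The difference between pregnant and cyclic heifers in this change was tested itself, and 0 of 33 genes passed by limma (3 had an unadjusted p under 0.05), beside 0.974% of all probe sets. It was 0.90 ± 0.44 for SLC15A1 (adjusted p = 0.634), 0.77 ± 0.31 for SLC16A3 (adjusted p = 0.45) and -0.68 ± 0.30 for SLC1A4 (adjusted p = 0.546). The rises seen in pregnant heifers are therefore not shown to differ from the change in cyclic ones. For SLC16A3 the change within cyclic groups was 1.39 ± 0.31 in CN and -0.60 ± 0.31 in CH, and 0.89 ± 0.31 in PN and 1.43 ± 0.31 in PH.

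**Figure D3:**
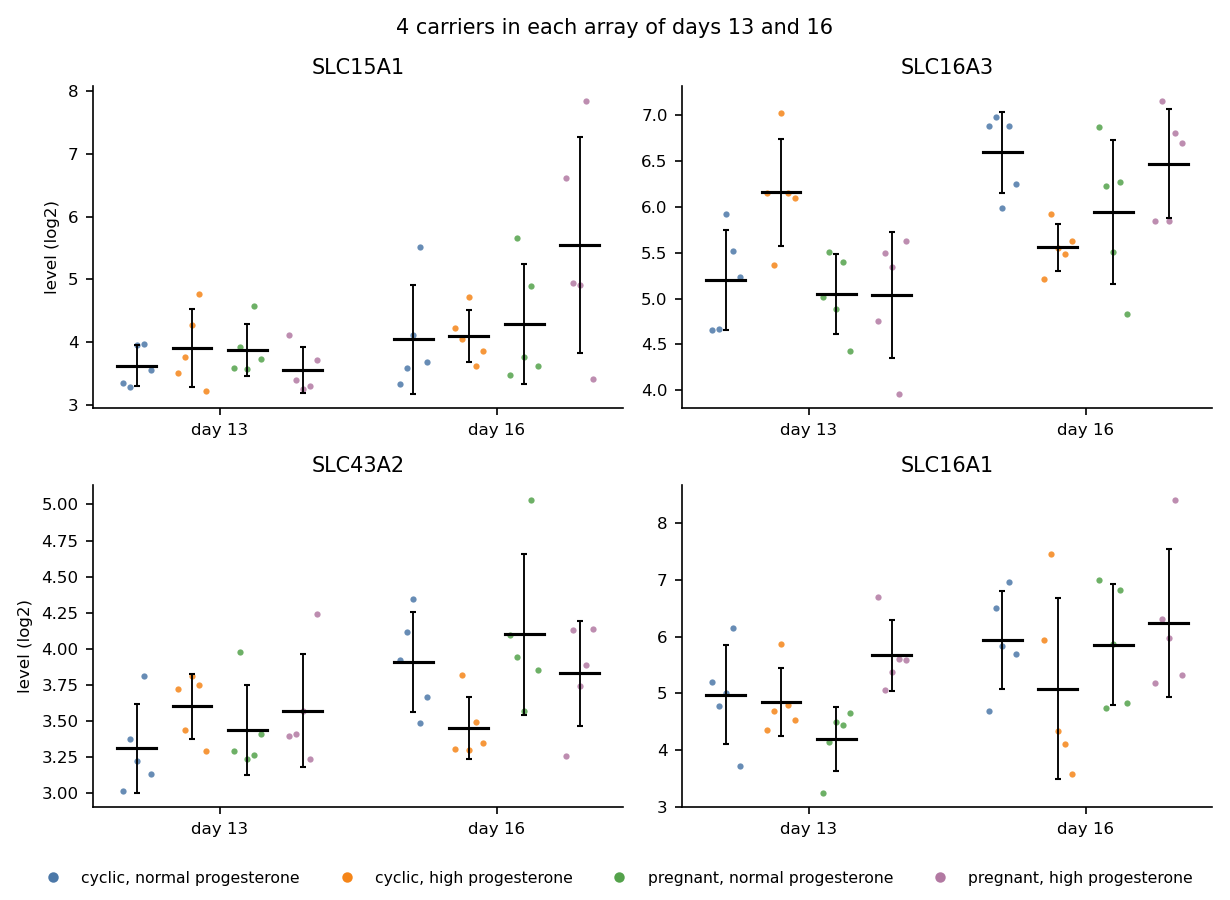
Log2 level of SLC15A1, SLC16A3, SLC43A2 and SLC16A1 in each array of days 13 and 16; colours give the 4 groups, the bar is the group mean and the whiskers its SD. On day 16 SLC15A1 is spread from 3.41 to 7.85 in PH, and the CN and CH values of SLC16A3 do not overlap.

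Other genes of the lists also moved from day 13 to day 16 in pregnant heifers, where 6.72% of all probe sets passed. In the amino acid response 5 of 25 rose and 5 fell, with ATF3 at 2.33 ± 0.37, PHGDH at -2.27 ± 0.32 and PSAT1 at -1.37 ± 0.25. PHGDH and PSAT1 were also among 3 genes of that list that fell in cyclic heifers, by 1.59 ± 0.32 and 1.84 ± 0.25. Of the sensing and mTORC1 list 1 rose and 3 fell in pregnant heifers, of the glutamine and arginine enzymes GPT2 rose by 0.91 ± 0.16 and SMS fell by 1.12 ± 0.21, and in the lactate list PGK1 rose by 0.52 ± 0.12 and LDHA fell by 0.63 ± 0.15. Of the peptidases 1 rose and 2 fell, and SLC25A38 was the 1 carrier of other families to rise. Smooth muscle markers had a median difference of -1.15 with 2 of 8 lower, and their mean per array in pregnant heifers ran from 6.66 to 12.45 on day 13 and from 6.28 to 7.83 on day 16. Of the epithelial markers 2 of 10 were higher. Their part in the carrier differences was not tested.

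High progesterone was compared with normal progesterone on each day, as the mean of CH minus CN and PH minus PN. On day 5 SLC7A7 was higher and no carrier lower. This 1 of 33 genes makes 3.03%, beside 0.908% of all probe sets. SLC7A7 stood at 6.89, 5.02, 6.34, 5.90 and 5.96 in CN against 6.72, 6.05, 7.98, 6.41 and 6.88 in CH, and at 5.79, 5.31, 5.87, 5.53 and 5.72 in PN against 6.92, 5.95, 7.03, 5.95 and 6.54 in PH. The cyclic groups overlapped and the pregnant groups did not.

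The difference for SLC7A7 on day 5 was 0.81 ± 0.21 (adjusted p = 0.0385), 0.78 ± 0.30 in cyclic and 0.83 ± 0.30 in pregnant heifers. The call was lost in a fit of day 5 alone (adjusted p = 0.207), without distant or high-muscle arrays (adjusted p = 0.0871 and 0.0604) and, at 0.66 to 0.80 (adjusted p = 0.0574 to 0.123), without CN replicate 2, 4 or 5, CH replicate 3 or 5, PN replicate 2 or 4 or PH replicate 1 or 3 of that day. CH replicate 3, the array of day 5 with the highest SLC7A7, also had the highest macrophage mean of any array at 10.30, with T and NK cell markers at 5.80 and B and plasma cell markers at 6.49. No marker of any cell type passed in this comparison, and macrophage markers had a median difference of 0.53. Their part in the SLC7A7 difference was not tested.

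SLC16A13 differed on day 5 by 0.78 ± 0.25 without passing (adjusted p = 0.126), and it passed at 0.98 (adjusted p = 0.015) without CN replicate 1. The broad amino acid importer SLC6A14 differed by 0.64 ± 0.23 (adjusted p = 0.194), and 7.46 in CH replicate 3 stood above the other CH arrays, which reached 4.71. Without that array the SLC6A14 difference was 0.32 (adjusted p = 0.59). SLC1A1 differed by 0.72 ± 0.34 (adjusted p = 0.409), with 1.09 ± 0.48 in cyclic and 0.36 ± 0.48 in pregnant heifers.

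On day 7 SLC6A20 was lower and SLC1A1 higher with high progesterone, 2 of 33 genes or 6.06%, beside 4.7% of all probe sets. SLC6A20 stood at 7.38, 9.78, 7.31, 9.42 and 3.86 in CN against 6.80, 6.46, 5.44 and 5.98 in CH. It stood at 10.06, 8.15, 9.49, 7.67 and 9.61 in PN against 6.49, 4.78, 5.86, 8.05 and 3.00 in PH. The CN array at 3.86 lay below all CH arrays, while 4 of 5 PH arrays lay below all PN arrays.

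SLC6A20 was lower by 2.37 ± 0.52, or 5.17-fold (adjusted p = 0.0021). The difference was -1.38 ± 0.75 in cyclic heifers and -3.36 ± 0.71 in pregnant heifers (adjusted p = 0.00695 in the latter, where 0.525% of all probe sets passed). The PH array at 3.00 was replicate 5, whose smooth muscle mean was 11.00. Without it the pregnant difference was -2.70 (adjusted p = 0.122), and the call was lost. In a fit of day 7 alone, with all its arrays, the pregnant call was lost (adjusted p = 0.426) and so was the call over both statuses (adjusted p = 0.136). The standard error over both statuses was 0.73 in that fit, beside 0.52 in the fit of all groups. CN replicate 5, at 3.86, had an epithelial mean of 7.76 and a macrophage mean of 8.17, the lowest and the highest of day 7, and the part of these cells was not tested.

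SLC1A1 stood on day 7 at 9.48, 9.47, 10.42, 8.26 and 7.52 in CN against 10.28, 9.71, 9.92 and 9.54 in CH. It stood at 8.51, 9.07, 8.83, 8.80 and 7.10 in PN against 9.52, 10.50, 9.59, 9.66 and 10.38 in PH. The pregnant groups did not overlap and the cyclic groups did. SLC1A1 was higher by 1.15 ± 0.35 (adjusted p = 0.0394), by 0.83 ± 0.51 in cyclic and 1.47 ± 0.48 in pregnant heifers. The call was lost, at 0.96 to 1.18 (adjusted p = 0.0514 to 0.117), without CN replicate 4 or 5, CH replicate 2, 3 or 4, PN replicate 1 or 5 or PH replicate 2 or 5 of day 7, in a fit of day 7 alone (adjusted p = 0.115) and without narrow, distant or high-muscle arrays (adjusted p = 0.0635, 0.159 and 0.0783).

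Of the carriers that changed from day 5 to day 7, SLC1A1 passed here and 4 others are given with values that missed the threshold. SLC3A2, SLC6A8 and SLC7A5 missed it too and are not given. The values below therefore do not stand for all carriers that changed. SLC1A5 differed by -0.72 ± 0.25 (adjusted p = 0.0761), SLC38A7 by 0.54 ± 0.20 (adjusted p = 0.106), SLC7A7 by 0.59 ± 0.22 (adjusted p = 0.112) and SLC16A13 by 0.64 ± 0.26 (adjusted p = 0.15). SLC1A5 passed without CN replicate 1 (-0.81, adjusted p = 0.0414) and SLC38A7 without CN replicate 3 (0.64, adjusted p = 0.0425). These values share the day 7 arrays with the comparison of days and are not independent of it.

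**Figure D4:**
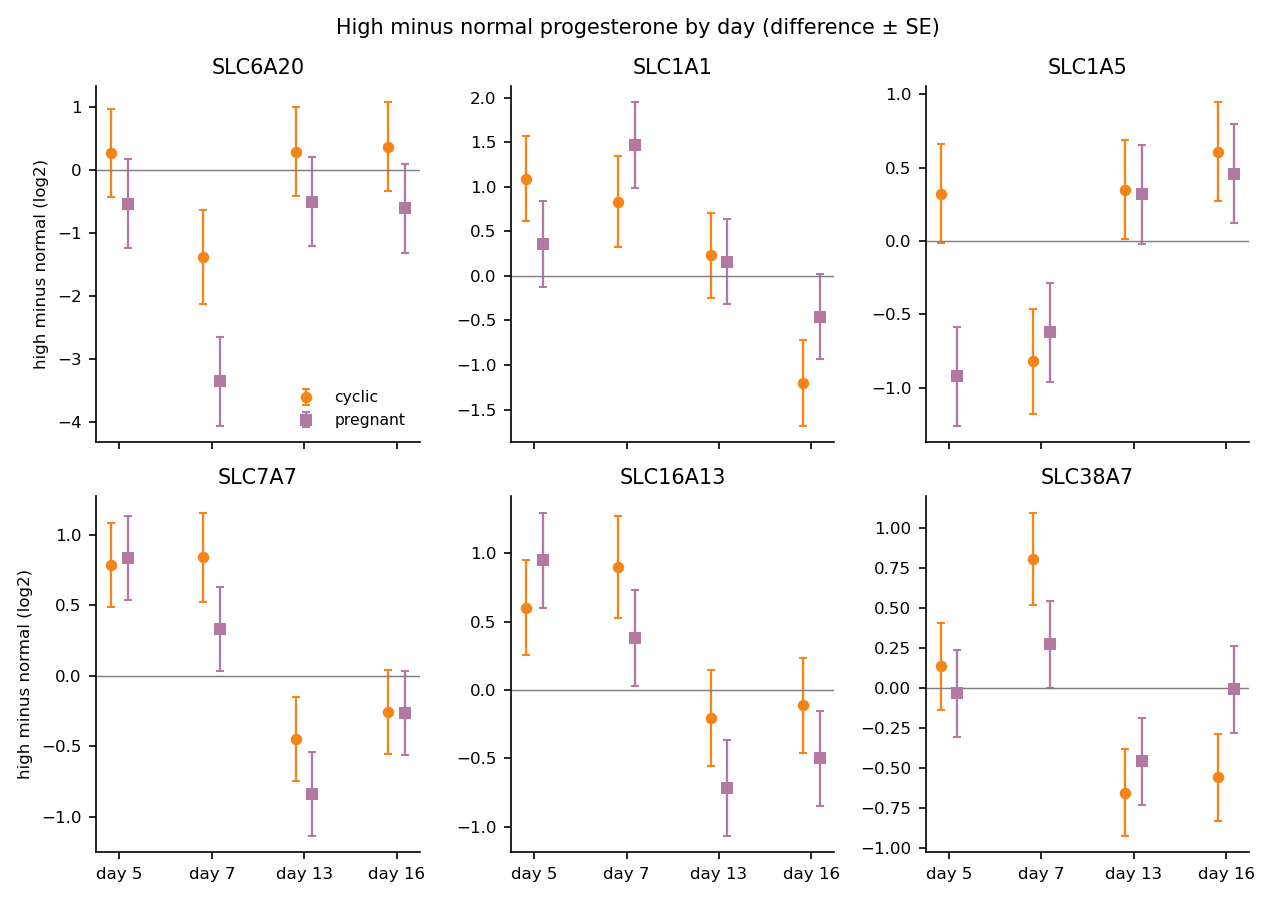
High minus normal progesterone in log2 level ± standard error by day for 6 carriers, with cyclic heifers as circles and pregnant heifers as squares; the line marks 0. SLC6A20 lies furthest below 0 on day 7 in pregnant heifers at -3.36, and the y axes differ between genes.

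With high progesterone on day 7, when 4.7% of all probe sets passed, 1 gene of the sensing and mTORC1 list was higher and 3 lower, with EIF4EBP1 at -0.75 ± 0.18 and TSC1 at 0.55 ± 0.16. In the amino acid response PCK2 and SHMT2 were lower by -0.95 ± 0.23 and -0.58 ± 0.15, and none of 25 was higher. The enzyme OAT was lower at -0.75 ± 0.18, the pyruvate importer of mitochondria MPC1 at -0.84 ± 0.18 and SLC25A29 at -0.84 ± 0.26, and the peptidase DPP4 was higher at 1.54 ± 0.34. On day 5, with 0.908% of all probe sets past the threshold, EIF4EBP1 and MPC1 were lower by -0.72 ± 0.18 and -0.83 ± 0.17, and the ornithine carrier SLC25A15 was higher by 1.17 ± 0.29. No cell type marker passed on day 7, and the macrophage median was -0.64.

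On days 13 and 16, 0 of 33 carriers passed by limma for high against normal progesterone over both statuses (4 and 7 had an unadjusted p under 0.05), beside 0.441% and 0.0958% of all probe sets. On day 13 SLC7A7 differed by -0.64 ± 0.21 (adjusted p = 0.233) and SLC38A7 by -0.56 ± 0.19 (adjusted p = 0.295), and outside the carriers the polyamine enzyme SMS was lower by -1.07 ± 0.21 (adjusted p = 0.00164). On day 16 SLC1A1 differed by -0.83 ± 0.34 (adjusted p = 0.352), SLC43A2 by -0.36 ± 0.12 (adjusted p = 0.237) and SLC38A2 by 0.30 ± 0.12 (adjusted p = 0.331).

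Within cyclic heifers of day 16, 2 of 33 carriers passed for high against normal progesterone, beside 2.92% of all probe sets. SLC16A3 stood at 6.88, 6.97, 5.99, 6.88 and 6.25 in CN and at 5.22, 5.92, 5.55, 5.48 and 5.62 in CH, with no overlap, and was lower by 1.04 ± 0.31 (adjusted p = 0.0485). The call was lost, at -1.12 to -0.94 (adjusted p = 0.0746 to 0.142), without CN replicate 1, 2, 4 or 5 or CH replicate 1, 3, 4 or 5 of day 16. It was also lost in a fit of the day alone, with quantile or median scaling and with the replicate block (adjusted p = 0.114, 0.0541, 0.0559 and 0.0524), and the mean over the probe sets of SLC16A3 gave -0.34 (adjusted p = 0.127). SLC38A2 stood at 11.00, 10.71, 11.33, 11.26 and 11.46 in CN and at 12.07, 11.66, 12.27, 11.57 and 11.32 in CH, and was higher by 0.62 ± 0.17 (adjusted p = 0.0289). That call was lost, at 0.50 to 0.59 (adjusted p = 0.0511 to 0.174), without CN replicate 1 or 2 or CH replicate 1 or 3, in a fit of the day alone (adjusted p = 0.103) and with the mean over its probe sets (0.35, adjusted p = 0.389).

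Pregnant heifers were compared with cyclic heifers on each day, over both progesterone levels. By limma 0 of 33 carriers passed on days 5, 7, 13 and 16, with 1, 1, 1 and 4 at an unadjusted p under 0.05. Of all probe sets 0.0167% passed on day 5, 0% on day 7, 0% on day 13 and 3.16% on day 16. On day 16 SLC15A1 differed by 0.85 ± 0.31 (adjusted p = 0.133), SLC7A5 by -0.79 ± 0.33 (adjusted p = 0.234), SLC6A8 by -0.42 ± 0.16 (adjusted p = 0.163) and SLC43A2 by 0.29 ± 0.12 (adjusted p = 0.255). SLC15A1 passed without CN replicate 4 or PH replicate 5 of day 16, at 1.03 and 1.12 (adjusted p = 0.0475 and 0.00964).

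Between PH and CH on day 16, 3 of 33 carriers passed, or 9.09%, beside 7.78% of all probe sets. By limma 0 of 33 passed between PN and CN on that day, with 2 at an unadjusted p under 0.05. Between PH and PN 0 of 33 passed, with 4 at an unadjusted p under 0.05. Besides PH against CH, such comparisons of progesterone or pregnancy gave calls only within pregnant heifers of day 7 and cyclic heifers of day 16. SLC15A1 stood at 4.23, 4.04, 4.71, 3.61 and 3.86 in CH against 6.63, 4.94, 4.91, 7.85 and 3.41 in PH, so 4 of 5 PH arrays lay above all CH arrays, and it was higher by 1.46 ± 0.44 (adjusted p = 0.0252). The call was lost, at 0.88 to 1.40 (adjusted p = 0.0639 to 0.267), without CH replicate 4 or 5 or PH replicate 1 or 4. SLC1A4 stood at 5.89, 7.37, 7.48, 6.12 and 7.60 in CH against 5.86, 6.08, 6.15, 5.61 and 6.19 in PH and was lower by 0.92 ± 0.30 (adjusted p = 0.0479). That call was lost, at -0.96 to -0.74 (adjusted p = 0.0591 to 0.187), without CH replicate 2, 3 or 5 or PH replicate 1, 2, 3 or 4. In a fit of day 16 alone the same differences did not pass for SLC15A1 and SLC1A4 (adjusted p = 0.202 and 0.138). SLC7A9 was higher by 0.25 ± 0.08 (adjusted p = 0.0362), but near the lower end of the scale, and its call was lost, at 0.11 to 0.26 (adjusted p = 0.0614 to 0.435), without CH replicate 2, 3, 4 or 5 or PH replicate 3 or 4. It was lost too in a fit of the day alone, with median centring and with the replicate block (adjusted p = 0.28, 0.122 and 0.0529).

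The epithelial mean per array on day 16 ran from 8.14 to 8.47 in CH and from 8.64 to 8.94 in PH, without overlap, and from 8.45 to 8.92 in CN. The comparisons of CH with CN and with PH on that day thus go with a lower epithelial mean in CH. Other markers also differed between pregnant and cyclic heifers of day 16 over both progesterone levels. Of these, 3 of 10 endothelial and 2 of 9 stromal markers were lower in pregnant heifers. Higher were 2 of 8 macrophage and 1 of 10 epithelial markers, beside 3.16% of all probe sets past the threshold. The part of these cell types in the carrier differences was not tested.

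Whether the progesterone difference depended on pregnancy was tested on each day, and 0 of 33 carriers passed by limma. At an unadjusted p under 0.05 there were 1, 5, 2 and 5 genes on days 5, 7, 13 and 16, and of all probe sets 0%, 0.025%, 0.0208% and 0.87% passed. SLC16A3 came nearest on day 16, with a difference of differences of 1.56 ± 0.44 (adjusted p = 0.0593). It passed without CN replicate 3, CH replicate 2 or PN replicate 1 of day 16, at 1.65 to 1.80 (adjusted p = 0.0227 to 0.0452). Genes under 3 also passed without 1 array: SLC6A11, SLC6A15 and SLC6A17 on day 7, at -0.31 to -0.22 (adjusted p = 0.0215 to 0.0351), without CH day 7 replicate 2 or 5, and SLC7A9 on day 16, at 0.42 and 0.44 (adjusted p = 0.0433 and 0.0254), without PH day 16 replicate 2 or 5. The opposite signs in SLC16A3, lower in CH than in CN and 6.47 in PH against 5.94 in PN on average, thus missed the threshold as a difference between statuses.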

How the data were processed

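The study measured endometrial RNA on 79 Affymetrix arrays in 16 groups. The authors deposited 1 table of log2 expression values; RMA, GCRMA and limma stand in the submitters' processing notes, and which of them made the values is not given in the sources used here. Of 24128 probe sets 112 controls were left out. Genes were named through the platform annotation, where 13292 probe sets had 1 symbol, 86 several and 10638 none, and 33 of 33 carrier genes were found in the cattle gene table. For a gene with several probe sets, the one of highest mean stands for it.

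A limma (3.58.1, R 4.3.3) fit of 16 group means over all arrays had 63 residual and 1.49 prior degrees of freedom, with Benjamini-Hochberg correction over 24016 probe sets and a threshold of 0.05. The fit was also run on simulated data with independent normal noise for each probe set and array. Such data hold no distant arrays, so that run does not show how the calls behave in these samples. Members and gene lists were chosen with earlier results of these data known. Per comparison the text names the 8 members of largest difference past the threshold and up to 3 genes per gene list. A set list of carriers could be named besides, but not every one of them is given in each comparison. Carriers of that list that missed the threshold for progesterone or pregnancy were chosen with their values known. Other carriers and marker genes that are named, and SLC7A9, SLC6A2, SLC6A11, SLC6A15 and SLC6A17 where they missed the threshold, were chosen after their values were seen. For progesterone or pregnancy within a single status or level, calls are given for the comparisons in which a carrier passed.

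Alternatives were quantile and median scaling, the brighter probe sets, the mean over probe sets, a fit of the days concerned, a replicate block, and leaving out narrow arrays (SD under 2.7), distant arrays (SD of deviations over 0.45), high-muscle arrays (marker mean over 10) or each array in turn. Replicate numbers were not treated as pairs in the main fit. Same-numbered arrays of a day had a mean correlation of deviations of 0.0294, 0.0467, 0.0228 and -0.00919 on days 5, 7, 13 and 16, with single pairs from -0.303 (day 13) to 0.336 (day 16). Arrays of other numbers and groups had means of -0.00762, -0.0107, -0.00563 and 0.00218. These values cannot show whether same-numbered samples were handled together. Figures were drawn with matplotlib 3.10.9. No sequences were used here.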

Additional observations from a re-analysis of the deposited data

Results flagged for a closer look

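Each value here lay so far from the other arrays of its group that the gap to the nearest of them, divided by the group's range, exceeded Dixon's critical value for 4 or 5 arrays. This held for 32 of 352 sets of arrays (22 carriers with a mean of 3 or more in 16 groups), or 9.09%. The critical value is set for about 1 in 20 among independent normal values. These sets share arrays and some genes lie near the lower end of the scale, so the share does not show an excess. Levels are log2, and the range of the other arrays of the group stands beside each.

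SLC15A1 stood at 4.86 in PH day 5 replicate 1 beside 3.72 to 4.03 and 4.79 in PH day 7 replicate 3 beside 3.91 to 4.12. SLC15A4 stood at 8.19 in PH day 13 replicate 2 beside 7.66 to 7.78 and 8.48 in PH day 16 replicate 4 beside 7.77 to 7.83. SLC16A1 stood at 6.44 in CH day 5 replicate 3 beside 3.88 to 4.28, 5.13 in CN day 7 replicate 5 beside 4.00 to 4.24 and 5.87 in CH day 13 replicate 3 beside 4.36 to 4.79. SLC16A13 stood at 7.52 in CN day 16 replicate 3 beside 6.67 to 6.89. SLC1A1 stood at 7.10 in PN day 7 replicate 5 beside 8.51 to 9.07. SLC1A3 stood at 4.20 in CN day 5 replicate 2 beside 3.05 to 3.29, 3.98 in CH day 13 replicate 3 beside 3.14 to 3.37, 3.55 in PH day 13 replicate 1 beside 3.12 to 3.17 and 4.52 in CH day 16 replicate 3 beside 3.23 to 3.48. SLC1A5 stood at 6.50 in CN day 7 replicate 5 beside 4.06 to 4.72, 5.56 in PN day 7 replicate 5 beside 4.12 to 4.51, 3.47 in CN day 13 replicate 5 beside 3.95 to 4.09, 3.05 in PN day 13 replicate 2 beside 3.96 to 3.97 and 3.42 in CN day 16 replicate 5 beside 3.96 to 4.09. SLC43A2 stood at 3.78 in PN day 5 replicate 2 beside 3.12 to 3.28, 3.01 in PH day 7 replicate 3 beside 3.20 to 3.25 and 3.98 in PN day 13 replicate 2 beside 3.23 to 3.41. SLC6A14 stood at 7.46 in CH day 5 replicate 3 beside 3.91 to 4.71. SLC6A20 stood at 6.62 in CH day 5 replicate 3 beside 7.79 to 8.19 and 5.49 in PN day 5 replicate 2 beside 8.24 or more. SLC6A8 stood at 7.76 in PN day 7 replicate 3 beside 7.24 to 7.37. SLC7A1 stood at 4.74 in CN day 16 replicate 1 beside 5.66 to 6.03. SLC7A5 stood at 4.37 in CN day 7 replicate 1 beside 4.73 to 4.84 and 3.67 in PN day 13 replicate 4 beside 4.43 to 4.65. SLC7A6OS stood at 7.53 in PN day 7 replicate 1 beside 7.39 to 7.41, 7.51 in PH day 7 replicate 3 beside 7.35 to 7.38, 7.51 in PN day 13 replicate 1 beside 7.37 to 7.39 and 7.54 in PH day 13 replicate 1 beside 7.33 to 7.39.

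CH day 5 replicate 3 and PH day 7 replicate 3 had 3 such values each. CH day 5 replicate 3 also had the highest macrophage mean of all arrays, at 10.30, and the part of these cells in its carrier levels was not tested.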

How the results depend on the processing

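Over 35 carrier differences past the threshold, 340 values under other settings gave 315 calls that held, 25 lost and 0 of opposite sign. For them 1056 fits without 1 array gave 1002 that held, 54 lost and 0 of opposite sign. Most of the latter losses fell on progesterone and pregnancy calls, which the totals do not describe. On day 7 SLC1A1 lost its call in 9 of 19 fits and SLC6A20 in 0 of 19, or 1 of 10 in pregnant heifers. SLC7A7 on day 5 lost 9 of 20. Between CH and CN on day 16 SLC16A3 lost 8 of 10 and SLC38A2 4 of 10. Between PH and CH SLC1A4 lost 7 of 10, SLC7A9 6 of 10 and SLC15A1 4 of 10. Of the calls between days only SLC38A11 (5 of 39) and SLC43A2 (1 of 20, pregnant) lost any. Under the other settings the count of carriers past the threshold ran from 6 to 9 for day 5 to 7 (8 as reported), from 10 to 15 for day 7 to 13 (14) and from 2 to 5 for day 13 to 16 in pregnant heifers (4), the lowest each time with the brighter probe sets. Counts moved by over 1.5 times, or to or from 0, as follows. From day 13 to day 16 in cyclic heifers the count was 1 in place of 0 with the days concerned alone, the brighter probe sets, the replicate block, the mean over probe sets or without distant arrays. That gene was SLC1A4 with the mean over probe sets and SLC16A13 in the other settings. The SLC16A13 difference itself stayed at -0.90 in each of these, and no distant array is a cyclic one of day 13 or 16. In pregnant heifers the count was 2 in place of 4 with the brighter probe sets, of which there are fewer. SLC16A1, short of the threshold there, passed with the replicate block and without narrow or distant arrays (adjusted p = 0.0498, 0.0318 and 0.0321). For progesterone on day 5 it was 0 in place of 1 with the day alone or without distant or high-muscle arrays. On day 7 it was 0 in place of 2 with the day alone, 1 without narrow, distant or high-muscle arrays and 4 with the replicate block, which added SLC1A5 and SLC7A7 (adjusted p = 0.0366 and 0.045). On day 16 it was 2 in place of 0 without narrow or distant arrays, SLC6A11 and SLC6A15 under a level of 3. None of the arrays left out there is of day 16. The interaction on day 16 gave 1 in place of 0 with quantile scaling, where the gene was SLC7A9, under a level of 3. It also gave 1 with the brighter probe sets or without narrow, distant or high-muscle arrays, where the gene was SLC16A3. These settings left out no array of day 16 either, and the SLC16A3 difference stayed at 1.56. Only the estimate of the spread or the probe sets tested changed. Except as given here and in the results, the cause of a lost call was not tested. Without single arrays the counts ran from 8 to 10 (day 5 to 7), 13 to 14 (day 7 to 13), 0 to 2 (cyclic, day 13 to 16), 3 to 6 (pregnant), 0 to 2 and 1 to 3 (progesterone on days 5 and 7), 0 to 1 (pregnancy on day 16), 0 to 3 and 0 to 1 (interaction on days 7 and 16). Arrays of the same replicate number were not treated as paired here, and not every same-numbered pair correlated above 0.1. Another scaling moved the median of all probe sets by at most 0.0852. Levels under 3 limit what can be said of 11 genes.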
